A study of Mus musculus with 8 samples.

Results

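The expression of 8 genes that are known as regulators of hematopoietic stem cells, *Mecom*, *Prdm16*, *Hlf*, *Mycn*, *Erg*, *Mllt3*, *Msi2* and *Ndn*, was examined in RNA-seq libraries of *Pcgf1*-KO and control progenitors of the mouse. The genes were chosen by name from 23284 gene symbols in the expression tables, with earlier results of these libraries known. IdHPCs are bone marrow LSK progenitors that were transduced with human Id3 and are held in culture on TSt-4 stromal feeder cells with IL-7, SCF and Flt3-L. LMPPs are lymphoid-primed multipotent progenitors sorted from the bone marrow. All libraries come from the B6CBAF1/J strain by their labels, which give passages 15 to 18. *Pcgf1*-KO IdHPCs carry Cre-ERT2 and *Pcgf1* fl/fl and were treated with 4-OHT for 4 days, which deletes *Pcgf1* exons 2 to 7. The control IdHPCs are *Pcgf1* fl/fl by their labels. Their treatment in the RNA-seq is not given in the sources used here. In another experiment of the study the controls were ERT2-Cre *Pcgf1* fl/fl IdHPCs that received ethanol. The LMPPs of *Pcgf1* fl/fl mice (control) and of ERT2-Cre *Pcgf1* fl/fl mice (*Pcgf1*-KO) were all cultured for 4 days with 4-OHT. Each cell type has 2 control and 2 *Pcgf1*-KO libraries, 8 in all. The paper describes 2 independent experiments for each cell type. It does not state whether libraries with the same replicate number come from the same experiment. IdHPCs are held as progenitors by the transgene, and the labels name TSt-4 stroma in the culture of all 8 libraries.

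Hematopoietic stem cells keep their identity through a network of transcription factors whose expression falls as cells become committed to a lineage. PCGF1 is a subunit of a variant Polycomb repressive complex 1, which places ubiquitin on histone H2A at CpG-rich promoters. MECOM and PRDM16 are related zinc finger factors, HLF is a basic leucine zipper factor, MYCN belongs to the MYC family and ERG to the ETS family, and all of them are known for roles in stem cells. The remaining 3 genes do not encode classical transcription factors. MLLT3 is a chromatin reader of the super elongation complex, MSI2 is an RNA-binding protein, and NDN (necdin) is a MAGE family protein from an imprinted gene.

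The letters before a gene's start show how far the 8 genes share a CpG-rich promoter. They do not show whether PCGF1 is bound there. The RefSeq promoter table held 14 starts for all 8 genes, and the 250 bases before each start matched the gene's chromosome in NCBIM37 (mm9) exactly once. A window was counted as CpG-rich with a GC content of 50% or more and a CpG ratio (observed over expected) of 0.6 or more, which held for 7 of the 14 windows (3 of them overlapping starts of *Msi2*) and for 31.0% of the 32851 windows of all genes. *Hlf*, *Prdm16* and the upstream start of *Mecom*, the 3 genes with log2 differences above 1 between LMPP libraries described further on, are shown first, with each CpG in capitals, on the minus strand from 5′ to 3′.
Hlf, chr11:90252232-90252481: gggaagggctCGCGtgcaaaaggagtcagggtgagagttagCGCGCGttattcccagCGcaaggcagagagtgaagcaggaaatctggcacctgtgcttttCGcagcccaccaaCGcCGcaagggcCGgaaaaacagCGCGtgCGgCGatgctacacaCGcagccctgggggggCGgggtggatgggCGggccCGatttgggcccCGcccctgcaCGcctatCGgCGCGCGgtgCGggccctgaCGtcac
Prdm16, chr4:154010983-154011232: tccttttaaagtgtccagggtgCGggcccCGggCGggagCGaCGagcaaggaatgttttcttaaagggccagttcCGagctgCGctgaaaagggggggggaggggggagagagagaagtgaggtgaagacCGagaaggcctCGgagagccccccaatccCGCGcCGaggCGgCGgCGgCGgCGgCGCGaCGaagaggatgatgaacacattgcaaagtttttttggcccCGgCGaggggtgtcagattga
Mecom, chr3:30408682-30408931: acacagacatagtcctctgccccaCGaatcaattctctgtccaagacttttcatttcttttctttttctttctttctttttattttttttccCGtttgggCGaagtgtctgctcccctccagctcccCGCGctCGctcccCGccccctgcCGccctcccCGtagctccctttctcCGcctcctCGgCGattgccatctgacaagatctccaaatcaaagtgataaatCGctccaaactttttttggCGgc
These windows held 26 CpGs (*Hlf*), 22 (*Prdm16*) and 14 (*Mecom*), where the median window of all genes held 6. *Mllt3* and *Msi2* also had a CpG-rich window at their upstream starts, with 23 and 29 CpGs, while *Mycn* (11 CpGs, ratio 0.586) and *Ndn* (5 CpGs) fell short of the definition. The downstream starts of *Mecom* (8 CpGs, ratio 0.506) and *Mllt3* (4 CpGs) fell short as well. In NCBIM37 the span of *Mecom* reaches chr3:30446930, upstream of both of its windows, and the bases before that end were not examined.

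*Erg* has 3 annotated starts, which are shown because its reads were spread differently along the gene in the 2 cell types. They are given in order from the upstream end, on the minus strand, with each CpG in capitals.
Erg, start 1, chr16:95808201-95808450: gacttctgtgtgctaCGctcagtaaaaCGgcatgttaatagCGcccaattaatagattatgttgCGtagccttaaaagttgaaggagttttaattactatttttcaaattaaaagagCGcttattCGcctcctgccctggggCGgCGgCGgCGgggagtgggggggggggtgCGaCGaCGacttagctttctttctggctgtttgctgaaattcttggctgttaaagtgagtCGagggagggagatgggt
Erg, start 2, chr16:95751973-95752222: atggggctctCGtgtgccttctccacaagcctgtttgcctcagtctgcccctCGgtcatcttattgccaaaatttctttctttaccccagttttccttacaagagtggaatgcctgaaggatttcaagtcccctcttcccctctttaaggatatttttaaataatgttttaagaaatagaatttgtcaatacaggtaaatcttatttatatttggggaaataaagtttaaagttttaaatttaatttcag
Erg, start 3, chr16:95680956-95681205: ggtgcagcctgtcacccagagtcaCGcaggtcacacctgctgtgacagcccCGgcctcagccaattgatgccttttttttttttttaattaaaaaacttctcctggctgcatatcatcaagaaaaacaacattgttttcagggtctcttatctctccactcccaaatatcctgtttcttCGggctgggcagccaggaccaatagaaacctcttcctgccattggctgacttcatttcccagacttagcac
The window of start 1 held 14 CpGs at a GC content of 48.8%, just short of the definition, and those of starts 2 and 3 held 2 and 3 CpGs.

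In NCBIM37, *Mecom* spans chr3:29850221-30446930, *Prdm16* chr4:153690234-154010982, *Mllt3* chr4:87415829-87679268, *Msi2* chr11:88152884-88579827, *Hlf* chr11:90197849-90252231, *Mycn* chr12:12942902-12948720 and *Erg* chr16:95580776-95808200, all on the minus strand, and *Ndn* spans chr7:69493163-69494814 on the plus strand. All values here are reads on their exons.

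The deposited values are read counts scaled to the library total (CPM) for each exon, which were summed over the distinct exons of each gene. The libraries held between 9618849 and 25302206 reads on distinct exons, so that a single read stood for 0.0287 to 0.0757 CPM. A floor of 3 reads was used, which is 0.0860 to 0.227 CPM. *Pcgf1*-KO 2 of the IdHPCs stood apart, since the last exon of the genes held 27.4% of the reads there, against 21.9% to 23.6% in the other 3 IdHPC libraries. On exons 2 to 7 *Pcgf1* had 193 and 173 reads in the control IdHPCs and 15 in each *Pcgf1*-KO IdHPC library. In the LMPPs the same exons went against the labels, with 84 reads in the library labelled control 1, 0 in that labelled control 2, 76 in that labelled *Pcgf1*-KO 1 and 0 in that labelled *Pcgf1*-KO 2. The LMPP libraries are therefore compared by their labels and, separately, by whether reads on these exons were present. The second split is also replicate number 2 against replicate number 1 of the labels, so that the exon reads and anything else that came with the replicate number cannot be told apart, and it is not a comparison of genotypes by the labels. It would be one if the labels of control 2 and *Pcgf1*-KO 1 were exchanged, which was not tested. The paper reports lower *Pcgf1* expression in *Pcgf1*-KO LMPPs, in genome browser tracks and by RT-qPCR. Of 8 progenitor markers the 7 that stood in the tables under the listed symbol, *Ptprc*, *Flt3*, *Cd34*, *Kit*, *Ly6a*, *Id3* and *Cd48*, were above 1 CPM in every library of both cell types.

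The levels of the 8 genes differed widely within each cell type (plot of CPM by library). To compare levels between genes, CPM was divided by the length of the annotated exons in kb. In IdHPCs the order was the same in all 4 libraries, with *Mycn* at 40.5 to 71.3 CPM per kb, *Msi2* at 12.9 to 19.3, *Erg* at 4.52 to 13.5, *Mllt3* at 3.27 to 4.72 and *Mecom* at 0.103 to 0.209. *Mycn* and *Mecom* were separated from their neighbors in this order, whereas the ranges of *Msi2* and *Erg*, and those of *Erg* and *Mllt3*, overlapped. By its mean per kb *Mycn* lay above 93.8% of the tested genes in IdHPCs and above 51.6% in LMPPs. In LMPPs *Erg* had the highest level in every library, 16.7 to 23.5 CPM per kb. *Msi2* (7.77 to 10.7), *Mycn* (5.15 to 10.4) and *Hlf* (3.89 to 11.3 CPM per kb) followed in an order that changed between libraries. *Mllt3* (1.02 to 2.39), *Ndn* (0.665 to 1.15), *Mecom* (0.237 to 0.730) and *Prdm16* (0.142 to 0.543 CPM per kb) came after them, each overlapping with the next. The tables of the 2 cell types were normalized separately, and no level was tested between them.

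**Figure D1:**
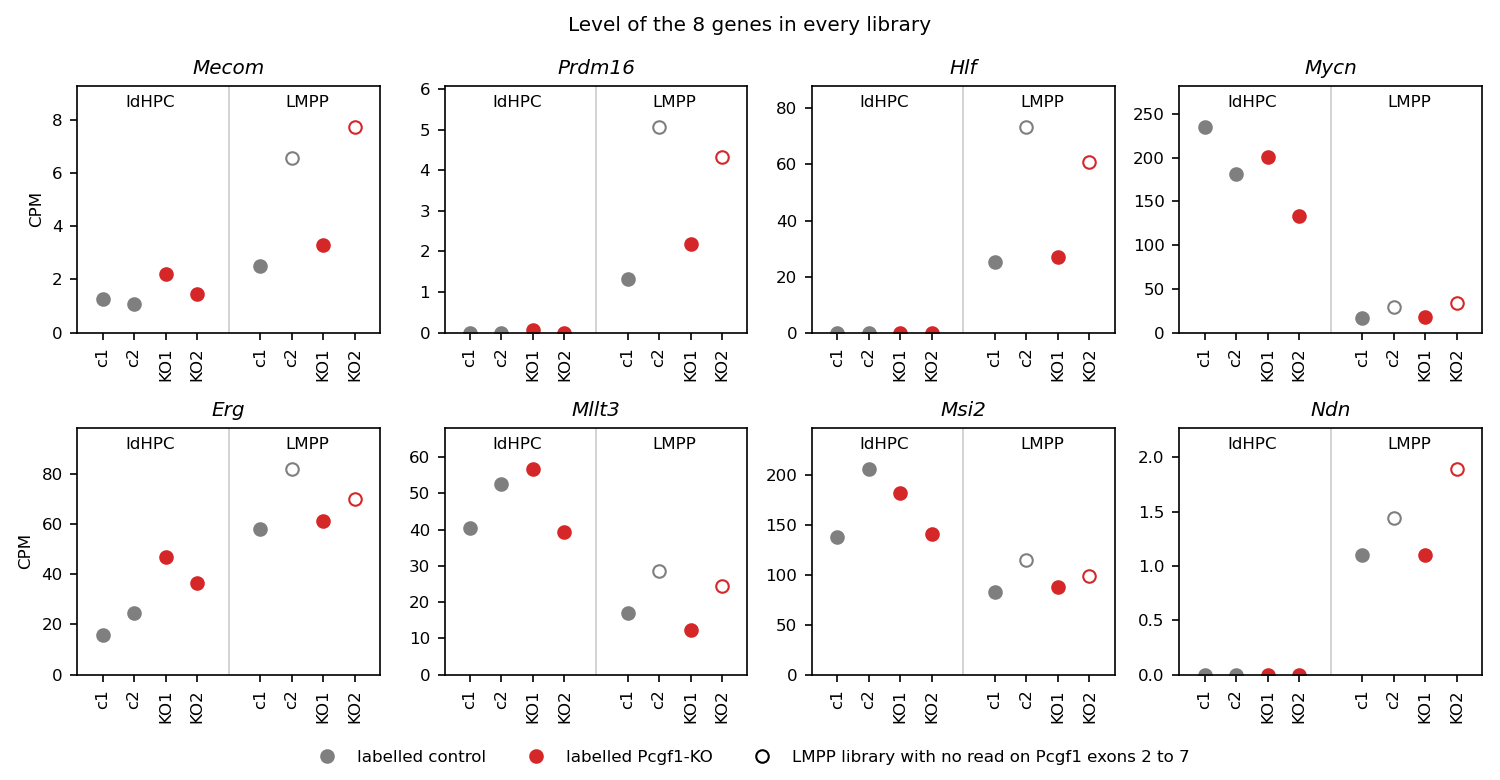
CPM of the 8 genes (y axes, linear, each from 0) in the 4 IdHPC and 4 LMPP libraries (x axes; c, control; KO, *Pcgf1*-KO by label); each point is 1 library, and open points are LMPP libraries with 0 reads on *Pcgf1* exons 2 to 7. *Hlf* and *Ndn* are at 0 in the 4 IdHPC libraries, and both open points lie above both filled LMPP points for every gene.

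*Hlf*, *Ndn* and *Prdm16* were at or near 0 in IdHPCs. *Hlf* and *Ndn* had 0 reads in each of the 4 libraries, among 85477884 reads on distinct exons in all, which allows a level of up to 0.0860 to 0.141 CPM in a single library. *Prdm16* had 2 reads in *Pcgf1*-KO 1 (0.0702 CPM) and 0 in the other 3 libraries. These 3 genes did not reach 1 CPM in any IdHPC library and were not tested there. A fall was not detectable from these levels. In the LMPP libraries, by contrast, *Hlf* had between 25.3 and 73.3 CPM, *Prdm16* between 1.33 and 5.06 CPM and *Ndn* between 1.098 and 1.89 CPM.

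The question of the IdHPC comparison is which genes change when PCGF1 is depleted. Of the 8 genes, 5 were tested and 0 were called higher or lower, with limma and a Benjamini-Hochberg adjusted p under 0.05, where 0.269% of all 12273 tested genes were called higher and 0.261% lower. At an unadjusted p under 0.05 there was 1 of the 5, *Erg*, which was higher, where 9.17% of all tested genes were higher and 5.33% lower at this threshold. For 2 of the 5, *Erg* and *Mecom*, the groups did not overlap and *Pcgf1*-KO was higher, which held for 25.6% of all tested genes, while 21.3% were lower without overlap. The median log2 difference of the 5 genes was 0.03, that of all tested genes 0.01. All log2 differences are on the scale of log2(CPM + 1), which understates the change of low genes.

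*Erg* was the gene among them that differed most. It had 15.7 CPM in control 1, 24.5 in control 2, 47.0 in *Pcgf1*-KO 1 and 36.4 in *Pcgf1*-KO 2. Both *Pcgf1*-KO libraries were above both controls. The means were 20.1 ± 6.22 CPM (control) and 41.7 ± 7.53 CPM (*Pcgf1*-KO) (SD, n = 2 each), a log2 difference of 1.04 (standard error 0.28, limma, adjusted p = 0.114), which did not pass the test. It passed with the replicate number as a block (limma, adjusted p = 0.0262), with edgeR's exactTest (adjusted p = 0.0177) and with DESeq2 (adjusted p = 0.0213) on the recovered reads. The exactTest is the test that the methods of the study name for calling genes. It passed in none of the other alternatives that kept all 4 libraries (limma or edgeR, adjusted p from 0.0864 to 0.679). Over all 15 alternatives the difference of *Erg* stayed between 0.73 and 1.34. Each of the 11 exons of *Erg* had a higher mean CPM in the *Pcgf1*-KO libraries, and for 7 of them the groups did not overlap. Exons of a gene share the same libraries, so that this count describes the spread along the gene and adds no replicates.

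Marker genes of stromal cells, the type of the TSt-4 feeders, were also higher in sum in the *Pcgf1*-KO libraries. Between the controls they ran against *Erg*, with 3882 CPM in control 1 and 3372 CPM in control 2. Their summed level was 3372 to 3882 CPM in control IdHPCs, against 6450 to 8045 CPM in *Pcgf1*-KO IdHPCs, 18 of 20 were tested, all 18 had a log2 difference above 0 and 2 were called higher (*Sparc*, 1.36, and *Col1a2*, 1.27), while *Dcn* and *Lum* were at 0 throughout. *Erg* is also an endothelial gene. Of 9 endothelial markers, *Cdh5*, *Kdr*, *Emcn*, *Sox17* and *Sox18* were at 0 in all 4 IdHPC libraries and *Tek* had 0.105 CPM in *Pcgf1*-KO 1 only, while 3 were expressed. *Egfl7* ranged from 76.3 to 85.0 CPM without and from 132.8 to 144.4 CPM with the deletion, *Eng* from 1.35 to 1.56 and from 1.83 to 2.26 CPM, and *Pecam1* from 56.9 to 61.1 and from 46.7 to 55.4 CPM, and none of the 3 was called. The part of feeder RNA in the level of *Erg* was not tested. In bulk RNA a change in the number of cells that express a gene and a change in the RNA per cell cannot be told apart.

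Few reads fell on *Mecom*, 41 and 38 in control IdHPCs (1.26 and 1.09 CPM) against 63 and 31 in *Pcgf1*-KO IdHPCs (2.21 and 1.46 CPM). Both *Pcgf1*-KO levels were above both controls, as for *Erg*. The log2 difference of *Mecom* was 0.37 (standard error 0.31, limma, adjusted p = 0.601), within an interval (95%) of -0.30 to 1.05. It was 0.18 without *Pcgf1*-KO 1 and 0.57 without *Pcgf1*-KO 2.

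*Mycn* stood at 234.7 and 181.5 CPM in control IdHPCs, against 200.8 and 133.3 CPM in *Pcgf1*-KO IdHPCs. The groups overlapped, since *Pcgf1*-KO 1 lay between the controls, and the log2 difference was -0.33 (standard error 0.25, limma, adjusted p = 0.567). It was -0.04 without *Pcgf1*-KO 2, -0.15 without control 1, -0.52 without control 2 and -0.63 without *Pcgf1*-KO 1. *Mllt3* stood at 40.6 and 52.7 CPM in control IdHPCs, against 56.7 and 39.3 CPM in *Pcgf1*-KO IdHPCs, with the highest and the lowest value of the 4 in the same group. Its log2 difference was 0.03, within an interval of -0.54 to 0.60. The controls had 137.6 and 205.5 CPM of *Msi2* and the *Pcgf1*-KO IdHPCs had 181.8 and 141.1 CPM, so that both *Pcgf1*-KO values lay between those of the controls. Its log2 difference was -0.07, within an interval of -0.63 to 0.49. For *Mllt3* and *Msi2* the sign changed when single libraries were left out (-0.23 to 0.29 and -0.36 to 0.22).

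**Figure D2:**
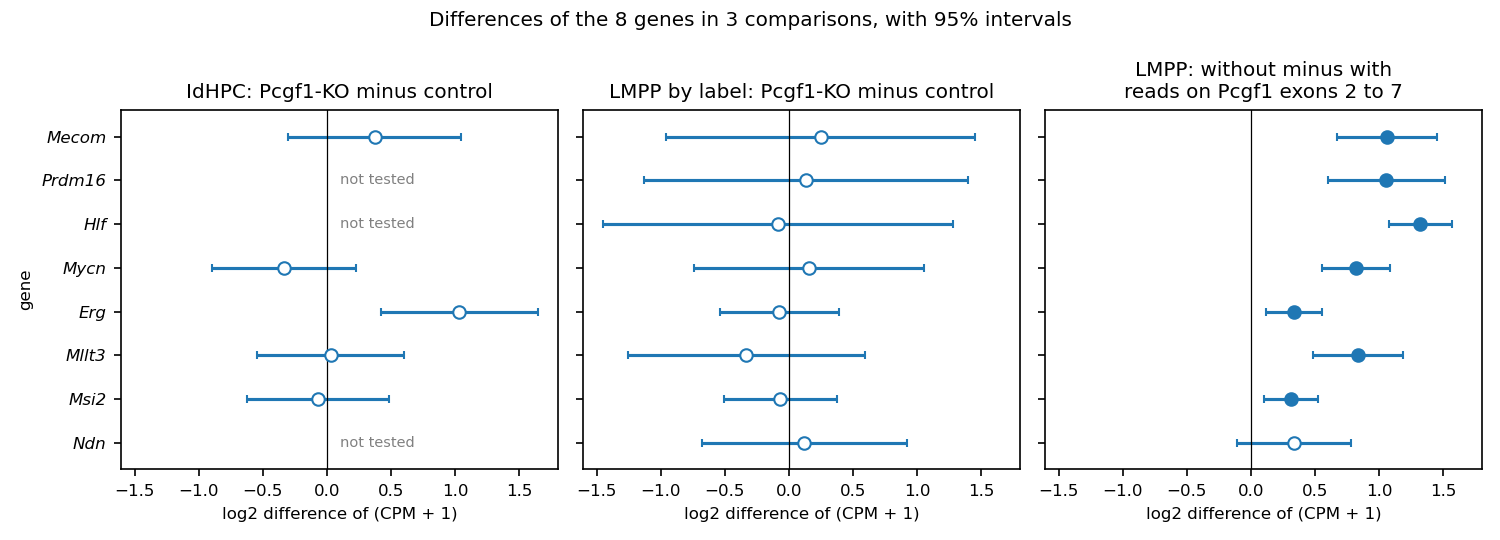
Log2 difference of (CPM + 1) of each gene (x axes) in 3 comparisons, with 95% intervals from limma; filled points have an adjusted p under 0.05, and genes below 1 CPM in every library are marked as not tested. *Erg* is the gene with the largest difference in IdHPCs (1.04), no gene is called by the LMPP labels, and 7 genes are called in the split by *Pcgf1* exon reads.

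Reads along *Erg* differed between the 2 cell types (plot of reads along *Erg*). The 2 exons at the 5′ end held 16 and 23 reads in the control IdHPCs and 69 and 27 in the *Pcgf1*-KO IdHPCs, which is 2.69% to 5.15% of the reads of the gene. In the 4 LMPP libraries they held 0 of 786, 1423, 892 and 923 reads of *Erg*, with exact binomial upper bounds of 0.259% to 0.468%, whereas the exon after them held between 50 and 121 reads in each. The exact binomial intervals (95%) of the shares, which cover counting error only, did not overlap between any IdHPC and any LMPP library. Within IdHPCs the share was 3.11% (1.79% to 5.01%) and 2.69% (1.71% to 4.005%) in the controls and 5.15% (4.03% to 6.48%) and 3.49% (2.31% to 5.04%) in the *Pcgf1*-KO libraries. The interval of *Pcgf1*-KO 1 lay above that of control 2 and overlapped with that of control 1, and the interval of *Pcgf1*-KO 2 overlapped with those of both controls. The table gives no coordinates for its exons, so that these exons were not assigned to 1 of the 3 starts shown above.

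**Figure D3:**
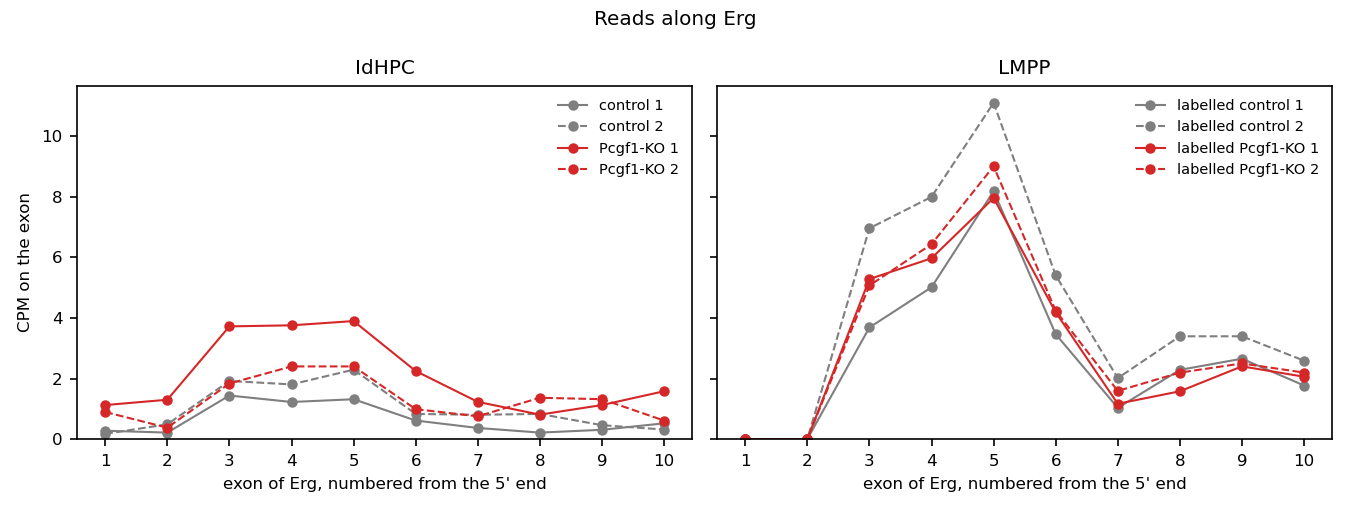
CPM on each of the first 10 exons of *Erg*, numbered from the 5′ end (x axis), in IdHPC (left) and LMPP libraries (right); each line is 1 library and the last exon, which holds more reads than any other in each library, is left out. Exons 1 and 2 hold reads in the 4 IdHPC libraries and 0 in the 4 LMPP libraries.

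By the labels of the LMPP libraries, 0 of the 8 genes were called in either direction, and 0% of all 12153 tested genes were called higher and 0% lower with limma. At an unadjusted p under 0.05, 2 genes of the table were higher, none of them among the 8. The count tests run on the recovered reads (DESeq2 and both edgeR tests) called 0 genes as well. Each labelled group held 1 library with and 1 without reads on *Pcgf1* exons 2 to 7. The difference between such libraries therefore lay within both groups, and a count of 0 does not show that a difference by label is absent. The groups overlapped for each of the 8 genes, where 5.92% of all genes were higher and 6.3% lower without overlap. The log2 differences lay between -0.33 (*Mllt3*) and 0.25 (*Mecom*), with a smallest unadjusted p of 0.413 from limma. *Hlf* shows the spread behind these values, since its 2 libraries labelled control had 25.3 and 73.3 CPM, and its 2 libraries labelled *Pcgf1*-KO lay between them, at 27.04 and 61.0 CPM. Its log2 difference by label was -0.08 within an interval of -1.45 to 1.28.

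The 8 genes separated the LMPP libraries without reads on *Pcgf1* exons 2 to 7 (labelled control 2 and *Pcgf1*-KO 2) from those with such reads (labelled control 1 and *Pcgf1*-KO 1). All 8 genes were higher without overlap in the libraries without these reads, which held for 26.7% of all 12153 tested genes, and 29.9% were lower without overlap. With limma and Benjamini-Hochberg adjustment, 7 of the 8 were called higher and 0 lower, where 10.1% of all tested genes were called higher and 7.08% lower. Their median log2 difference was 0.83, against a median of -0.02 over all tested genes. In the following, levels are given first for the libraries with and then for those without the exon reads, each time in the order labelled control, labelled *Pcgf1*-KO.

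*Hlf* had the largest difference of the 8 genes on the log2(CPM + 1) scale. By the ratio of the mean CPM *Prdm16* (2.66) was above *Hlf* (2.57), and likewise in the fits with a pseudocount of 0.1 and on the recovered reads. *Hlf* had 25.3 and 27.04 CPM with the exon reads and 73.3 and 61.0 CPM without them, and the distance between these pairs was several times the spread within them. The means were 26.2 ± 1.24 and 67.2 ± 8.69 CPM (SD, n = 2 each), a log2 difference of 1.32 (standard error 0.11, limma, adjusted p = 5.77e-05). All 4 exons of *Hlf* were higher without overlap, with 29 and 40 reads on the first exon against 127 and 85.

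*Mecom* had 2.51 and 3.29 CPM with the exon reads and 6.56 and 7.72 CPM without them, from 34, 48, 114 and 102 reads. The log2 difference was 1.07 (standard error 0.17, limma, adjusted p = 0.00247). Of its 13 exons with 10 or more reads over the 4 libraries, 10 were higher without overlap. *Prdm16*, its relative, had 1.33 and 2.20 CPM against 5.06 and 4.32 CPM, a log2 difference of 1.06 (standard error 0.20, limma, adjusted p = 0.00581). The ratio of the mean CPM was 2.46 for *Mecom* and 2.66 for *Prdm16*, larger than the fold of 2.09 and 2.08 on the log2(CPM + 1) scale, since both are low.

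*Mycn* had 17.0 and 17.9 CPM with the exon reads and 28.9 and 34.4 CPM without them. All 3 of its exons were higher without overlap, and the log2 difference was 0.82 (standard error 0.12, limma, adjusted p = 0.00121). *Mllt3* had 16.9 and 12.2 CPM against 28.7 and 24.4 CPM (0.84, standard error 0.16, limma, adjusted p = 0.00493), and 9 of its 11 exons with 10 or more reads were higher without overlap. These 5 genes kept their call in 14 of 15 alternatives and lost it without a filter on low genes, where the whole table gave 52 genes called higher.

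*Erg* and *Msi2* differed less. *Erg* had 58.0 and 61.2 CPM with the exon reads and 81.9 and 69.9 CPM without them, a log2 difference of 0.34 (standard error 0.10, limma, adjusted p = 0.0406). *Msi2* had 82.8 and 87.6 CPM against 114.5 and 98.5 CPM, a log2 difference of 0.31 (standard error 0.09, limma, adjusted p = 0.0453). For both, the library labelled control 2 was the highest, and without it the differences were 0.23 and 0.21 and were not called (limma, adjusted p = 0.251 and 0.278). Neither was called without the library labelled control 1 (limma, adjusted p = 0.155 and 0.197), and *Msi2* was not called without the library labelled *Pcgf1*-KO 1 (limma, adjusted p = 0.0553). Over the 15 alternatives the adjusted p ran from 0.00769 to 0.338 for *Erg*, which was called in 8, and from 0.0125 to 0.353 for *Msi2*, which was called in 7 (limma, edgeR or DESeq2).

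*Ndn*, with a single exon, had 1.106 and 1.098 CPM with the exon reads and 1.44 and 1.89 CPM without them. The groups did not overlap, but the log2 difference of 0.34 (standard error 0.20, limma, adjusted p = 0.30) did not pass the test, and its interval was -0.11 to 0.78.

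Markers of other cell types also moved between these LMPP libraries. The counts of called genes that follow stand beside 10.1% (higher) and 7.08% (lower) of all tested genes. The 11 mature myeloid markers in the table summed to 2611 to 2626 CPM with the exon reads and 2315 to 2393 CPM without them. Most of the sum was *Mpo* (1874 to 1996 CPM), which was not called (-0.08). Of 7 tested, 3 were called lower (*Itgam*, -1.28, *Csf1r*, -1.17, and *Lyz2*, -1.13). *Elane* (-0.17), *S100a9* (-0.34) and *Ctsg* (0.02) were not called either. The 7 megakaryocyte markers summed to 208.8 to 215.4 CPM with and 323.4 to 349.4 CPM without the exon reads, and 4 were called higher (*Pf4*, 1.21, *Ppbp*, 0.67, *Itga2b*, 0.54, and *Itgb3*, 0.49). Erythroid markers summed to 2.58 to 3.71 and 5.12 to 7.50 CPM, with *Slc4a1* at 0 and *Epor* called higher (1.13). *Epor* had 0.295 and 0.892 CPM with the exon reads and 2.01 and 2.88 CPM without them. It therefore entered the test only through the group where it was high. B cell markers summed to 20.2 to 25.9 and 15.9 to 16.2 CPM, with 1 of 2 tested genes called lower (*Blnk*, -1.48), and T cell markers to 15.4 to 18.4 and 10.75 to 10.9 CPM, with the 1 tested gene called lower (*Lck*, -0.59). Stromal markers summed to 42.8 to 44.5 and 53.8 to 63.9 CPM, with *Col3a1*, *Col6a1*, *Dcn*, *Lum* and *Postn* at 0 in all 4 libraries. Of 6 tested stromal markers *Pdgfrb*, which made up most of the sum (35.1 to 56.9 CPM), was called higher (0.56) and *Thy1* lower (-0.83). Endothelial markers summed to 380.9 to 386.0 and 368.8 to 378.9 CPM, with 0 of 5 tested genes called. Of the progenitor markers *Kit* was called higher (0.60) and *Ly6a* (-1.83), *Id3* (-1.67) and *Cd48* (-0.67) lower. What part a shift in the cells present has in the levels of the 8 genes was not tested.

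Other stem cell genes were set beside the 8 genes (plot of gene lists in LMPP libraries). Of 26 further regulators of stem cells, all tested in LMPPs, 11 were called higher and 1 lower in the libraries without the exon reads, with a median log2 difference of 0.25. They included *Nkx2-3* (1.79), *Zbtb16* (0.91) and *Gfi1* (0.78), and the gene called lower was *Egr1* (-0.94), an immediate early gene. Of 21 stem cell surface and niche genes, 18 were tested, 7 were called higher and 3 lower, with a median of 0.43. *Esam*, an adhesion molecule of stem cells, had 0.958 and 1.37 CPM with and 4.08 and 4.09 CPM without the exon reads (1.24, limma, adjusted p = 0.00158), followed by *Cdkn1c* (0.89), *Pdzk1ip1* (0.83) and *Gprasp2* (0.81). These counts and medians stand beside the background of 10.1% and a median of -0.02 given above. *Cdkn1c*, *Gprasp2*, *Procr* and *Fgd5* reached 1 CPM only in libraries without the exon reads, as did *Hoxb5* among the regulators. These genes could enter the test only through the group where they were high. *Tek* (-0.50, not called) entered only through the libraries with the exon reads.

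Lists of genes related to single members were described in the same split, where 10.1% of all tested genes were called higher and 7.08% lower. Of 18 imprinted genes, as *Ndn* is, 12 were tested, with a median of -0.04, and 3 were called higher. The called genes were *Sgce* (1.21), *Grb10* (1.12) and *Cdkn1c* (0.89). *Cdkn1c* reached 1 CPM only in the libraries without the exon reads, and *Meg3* (-0.32, not called) only in a library with them. Of 12 close paralogs 9 were tested, with *Maged1*, a MAGE gene like *Ndn*, called higher (1.195) and *Mycl1*, the relative of *Mycn*, lower (-0.56). In the MYC network 1 of 11 genes was called higher (*Mxi1*, a MAX partner, 0.64) and 1 lower (*Mycl1*), and of 12 MYC target genes 1 was called higher (*Ldha*, 0.39) and 1 lower (*Mat2a*, -0.38), with 7 lower without overlap, beside 29.9% of all tested genes. Of the 15 elongation partners of MLLT3, 13 were tested and 2 were called higher (*Ell2*, 0.42, and *Mllt6*, 0.38). By the labels 0 genes of these lists were called in LMPPs.

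**Figure D4:**
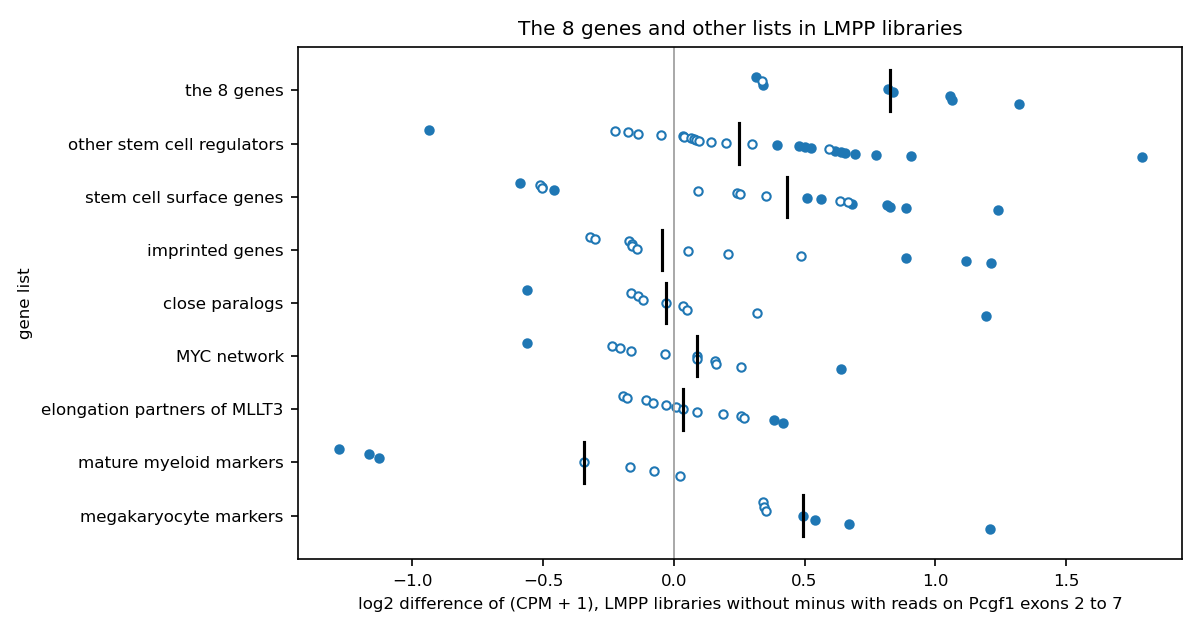
Log2 difference of (CPM + 1) between LMPP libraries without and with reads on *Pcgf1* exons 2 to 7 (x axis) for each tested gene of the 8 genes and of 8 other lists (rows, genes spread vertically in order of their difference); filled points have an adjusted p under 0.05 and black bars are medians. The median of the 8 genes is 0.83, that of the other stem cell regulators 0.25 and that of the mature myeloid markers -0.34.

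In IdHPCs the same lists held 0 called genes apart from the 2 stromal ones above, and the counts without overlap that follow stand beside 25.6% (higher) and 21.3% (lower) of all tested genes. Of the 26 stem cell regulators 23 were tested, with a median of -0.08, 5 higher and 5 lower without overlap, and *Egr1* had the largest difference (1.65, limma, adjusted p = 0.0514). Of the 21 surface and niche genes 7 were tested, led by *Angpt1* (1.17) and *Ifitm3* (0.84), and 6 were higher without overlap. Of 9 tested imprinted genes, led by *Igf2r* (-0.92) and *Sgce* (0.67), 3 were higher and 4 lower without overlap. Of 9 close paralogs, led by *Maged1* (1.202) and *Fli1* (-0.71), it was 1 and 3, and of 12 MYC target genes, led by *Fbl* (0.35) and *Npm1* (0.22), 2 and 1. In the MYC network 1 of 11 genes was higher and 7 were lower without overlap, led by *Mxi1* (-0.61) and *Mga* (-0.61), and among the elongation partners of MLLT3 0 of 15 were higher and 7 lower, led by *Ccnt1* (-0.86) and *Aff4* (-0.79). Markers of other cells had 0 called genes, with *Cd34* (0.97) and *Ly6a* (0.87) among progenitor markers, *Egfl7* (0.77) and *Eng* (0.31) among endothelial, *Lyz2* (1.07) and *Mpo* (0.95) among myeloid, *Pax5* (-1.41) and *Igll1* (1.36) among B cell, *Lck* (0.17) among T cell, *Epor* (0.25) among erythroid and *Gp1bb* (1.136) and *Itga2b* (0.92) among megakaryocyte markers. These are the largest differences in each list. The progenitor, endothelial, myeloid and megakaryocyte lists each held 2 genes that were higher and 1 that was lower without overlap, the latter being *Ptprc* (-0.64), *Pecam1* (-0.21), *Itgam* (-0.82) and *Itgb3* (-0.79). The B cell list held 0 higher and 2 lower, *Pax5* and *Blnk* (-0.49). All of these but *Pax5* were named after their values were seen. *Blnk* (1.03 CPM in control 2) and *Itgam* (2.54 CPM in control 1) reached 1 CPM in no other IdHPC library. Both entered the test only through the group where they were high.

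For the 5 genes tested in both tables, the genes with the most similar pattern were taken as those with the smallest root mean square difference of log2(CPM + 1), centered within each table, over the 8 libraries. Among 11248 genes, *Mecom* was nearest to *Epor* (0.11), *Naaa* (0.11) and *Cdc42bpa* (0.13), and *Mycn* to *6430527G18Rik* (0.10), *Cdh17* (0.11) and *Srpk1* (0.13). *Erg* was nearest to *Slc45a3* (0.14), *Slc39a8* (0.15) and *Myof* (0.155), *Mllt3* to *Plekha5* (0.092), *Pld1* (0.11) and *Cadm4* (0.11), and *Msi2* to *Glg1* (0.044), *Adamts1* (0.070) and *Ttc3* (0.075). None of these 5 genes was among the 3 nearest genes of another of them, and *Hlf*, *Prdm16* and *Ndn*, not tested in IdHPCs, were not compared.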

How the data were processed

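The authors prepared libraries from poly(A) RNA, mapped them to mm9, used Rsubread for counting and deposited CPM values per exon. The methods name HISAT2 as aligner, whereas the submitters' processing notes name TopHat2 (version 2.0.13). Although the design had assumed genes, each table lists 284716 exons. An exon equal to the one before it, under the same symbol and in all 8 libraries (58624 of 220394 with reads), was counted once, and exons were summed per symbol. This leaves the authors' denominator, which counts such repeats, in place. All values (100%, within 0.001 of a read) were whole multiples of 1 read, so that reads were recovered. A read that spans exons may stand in more than 1 of them, which the sources used here do not state, and count tests and intervals are then too narrow. Symbols stand for genes, so that reads of overlapping genes were not separated.

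Each table was tested alone with limma (version 3.58.1, R 4.3.3) on log2(CPM + 1) values, allowing a trend of the variance with the mean, over genes that reached 1 CPM in any of its 4 libraries, and p-values were Benjamini-Hochberg adjusted over all of them with a threshold of 0.05. IdHPCs and LMPPs were grouped by label, and LMPPs also by the presence of reads on *Pcgf1* exons 2 to 7. That split takes its groups from values in the libraries. The tests were checked on simulated counts with 200 genes changed by a log2 difference of 2, at a dispersion of 0.02. Of these, limma recovered all 200 in both tables, with 12 of 12273 (IdHPC) and 6 of 12153 (LMPP) further genes called. Smaller differences, such as those of the 8 genes (at most 1.32), were not simulated. The check does not show how often such differences would be called. Alternatives were another pseudocount (0.1), other filters, median ratio scaling, no trend, the replicate number or labelled genotype as a term, single libraries left out, edgeR (version 4.0.16), DESeq2 (version 1.42.0), all listed exons, and no exon at the 3′ end. Exon lengths and coordinates are from GENCODE on NCBIM37, and promoter sequences from RefSeq, whose windows (GRCm38.p6) were placed in NCBIM37 by exact match. The members, lists and tests were chosen with earlier results of these data known. All 8 genes are described whatever their values. From each list at most 4 called genes are named, those with the largest difference, or 2 where none was called. One gene that this rule would name is not reported here.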

Additional observations from a re-analysis of the deposited data

How the results depend on the processing

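The count of genes called in IdHPCs (33 higher, 32 lower) depended on the test. It was 3 and 1 without a filter, 484 and 185 with the replicate number as a block, 451 and 159 with edgeR's exactTest and 344 and 153 with DESeq2. It was 77 higher with edgeR's quasi-likelihood test, 19 higher with all listed exons summed, and 0 higher and 3 lower without the exon at the 3′ end. With single libraries left out it ran from 0 to 237 higher and from 14 to 581 lower. It was 0 and 14 without control 2, 237 and 581 without *Pcgf1*-KO 1 and 120 higher without *Pcgf1*-KO 2. Of the 8 genes, 1 (*Erg*) was called under the block, exactTest and DESeq2. The replicate number is shared by 2 pairs of libraries in each cell type, which is too few to show a pairing. The correlation of their deviations from the group means was 0.147 in IdHPCs and 0.705 in LMPPs, and the block gave 3 genes called higher by the LMPP labels.

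In the LMPP split by exon reads (1229 higher, 860 lower), 52 and 117 genes were called without a filter, with 0 of the 8 genes, 757 and 418 without the exon at the 3′ end, and 547 lower with DESeq2. Leaving out single libraries gave 719 to 1221 higher and 528 to 751 lower, with 5 to 7 of the 8 genes called. The counts were 719 and 528 without the library labelled control 2, and 566 lower without that labelled *Pcgf1*-KO 2. No paired analysis was possible there because the split and the replicate number are the same. With the labelled genotype as a term, 5 of the 8 genes were called. Every gene kept its sign in all 15 alternatives of this split.

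Signs changed elsewhere. In IdHPCs *Mllt3* had -0.0013 with median ratio scaling and -0.11 without the 3′ exon, and with single libraries left out *Mllt3* ran from -0.23 to 0.29 and *Msi2* from -0.36 to 0.22. By the LMPP labels the corresponding ranges were -0.30 to 0.80 (*Mecom*), -0.56 to 0.82 (*Prdm16*), -0.83 to 0.67 (*Hlf*), -0.29 to 0.61 (*Mycn*), -0.32 to 0.17 (*Erg*), -0.80 to 0.14 (*Mllt3*), -0.30 to 0.16 (*Msi2*) and -0.11 to 0.35 (*Ndn*). *Prdm16* had -0.018 without the 3′ exon. The cause was not tested. With 1 library left in a group, that library is assumed to vary like the others. With 2 libraries in a group, intervals are wide.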
